A study of Ceratotherium simum with 9 samples.

Results

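The final step of follicle growth was examined in extracellular vesicles (EVs) of follicular fluid (FF) from the southern white rhinoceros, by setting pre-ovulatory follicles (P, 30 to 34 mm in diameter) against dominant follicles (D, 18 to 29 mm). Both stages, and the growing follicles (G, 11 to 17 mm) of the same series, came from 2 females that had both been given chlormadinone acetate, a progestin, by mouth and then the GnRH analog Deslorelin by injection before aspiration. Neither the ages of the animals nor the number of follicles per stage was used here. Each stage had 3 small-RNA libraries, and according to the methods each library was made from equal volumes of EVs pooled over both animals. The replicates are therefore repeat preparations of the same animals' fluid, so a p-value below speaks of the spread among these preparations alone, which may be technical.

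The miRNAs described are those above 10 CPM in at least 2 of the 3 libraries of P or of D, which were 383 of the 417 miRNA names that passed this rule in any of the 3 stages and of the 733 names with a read. CPM are the deposited read counts scaled for depth by TMM, a method that weights library sizes by the miRNAs that differ least, and they summed to 706540 to 883834 in the P libraries and 877423 to 3229574 in the D libraries. The members held 98.7 to 99.9% of the recovered reads of each P and D library. Because rhinoceros miRNAs had not been catalogued, reads were named after horse (eca), cattle (bta) or human (hsa) miRNAs, and 176 members carry an equine, 88 a bovine and 119 a human name. Of the 383, 242 passed in both stages, 87 in P alone and 54 in D alone. A single read was worth 18.7 to 38.6 CPM in these libraries, so that the rule amounted to at least 1 read in at least 2 libraries of a stage. Just inside it stood 23 members with 2 reads in all, such as hsa-miR-589-5p with 1 read each in P1 and P2, and just outside it stood hsa-miR-25-5p with 168 reads in P3 and none elsewhere in P or D, and eca-miR-497 with 78 reads in D1 and none elsewhere in P or D.

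MicroRNAs are short RNAs cut from hairpin precursors, from one or both arms, and they lower the output of messenger RNAs that carry matches to their seed, the bases near the 5′ end. FF bathes the oocyte, the cumulus cells and the granulosa layer, and it also receives plasma that has crossed from the vessels of the theca, the outer cell layer of the follicle. EVs in FF can thus come from granulosa and theca cells, from blood cells and from more distant tissues. In libraries of this kind, fewer vesicles from a source and fewer copies per vesicle cannot be told apart.

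The mature sequences of the miRNAs that the comparison turned on are shown first, because the seed sets which messages a miRNA can pair with and which entries are near copies of each other. They are given 5′ to 3′ in DNA letters as the study's supplementary table lists them, with bases 2 to 8, the seed, in capitals. Such a sequence was found for 44 of the 383 members. The first set holds miRNAs with higher values in P, the second those with lower values in P.
eca-miR-184: tGGACGGAgaactgataagggt
bta-miR-9-5p: tCTTTGGTtatctagctgtatg
eca-miR-9a: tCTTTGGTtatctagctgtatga
hsa-miR-493-5p: tTGTACATggtaggctttcatt
eca-miR-381: tATACAAGggcaagctctctgt
bta-miR-199a-5p: cCCAGTGTtcagactacctgtt
eca-miR-199b-5p: cCCAGTGTttagactatctgttc
eca-miR-205: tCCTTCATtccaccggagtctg
eca-miR-31: aGGCAAGAtgctggcatagct
eca-miR-200a: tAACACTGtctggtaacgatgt
bta-miR-142-5p: cATAAAGTagaaagcactac
bta-miR-27a-3p: tTCACAGTggctaagttccg
eca-miR-146b-5p: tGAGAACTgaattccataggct
hsa-miR-146b-5p: tGAGAACTgaattccataggctg
eca-miR-155: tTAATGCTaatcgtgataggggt
hsa-miR-155-5p: tTAATGCTaatcgtgataggggtt
eca-miR-20a: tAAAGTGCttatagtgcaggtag
eca-miR-93: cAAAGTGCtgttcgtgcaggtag
Shared seeds tie several entries together. The seed CTTTGGT is common to bta-miR-9-5p and eca-miR-9a, CCAGTGT to bta-miR-199a-5p and eca-miR-199b-5p, GAGAACT to both miR-146b-5p entries, TAATGCT to both miR-155 entries, and AAAGTGC to eca-miR-20a and eca-miR-93. The miR-9, miR-199, miR-146b and miR-155 pairs are alike enough that their entries may share reads in the counting, so they are not independent measurements, whereas eca-miR-20a and eca-miR-93 have the seed in common but differ at more bases elsewhere.

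The P libraries held 47299, 18384 and 28069 recovered miRNA reads and the D libraries 32260, 149281 and 38258. D2 stood apart, because eca-miR-148a alone took 71.8% of its reads, against 13.9 and 20.1% in D1 and D3 and 11.0 to 13.6% in P. Among the G libraries, which entered the fit only to share the estimate of spread, G1 correlated better with the P libraries (Pearson's r of 0.77 to 0.82 across miRNAs on the log2 scale) than with G2 and G3 (0.71 and 0.72). Calls below come from limma on log2(CPM + 10), with an adjusted p under 0.1 and a change of at least 2-fold, and a positive log2 change means a higher level in P.

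Among the 383 members, 4 miRNAs were called higher and 7 lower in P. Over all 417 names tested the called share was 0.959% for higher and 1.68% for lower. Of these calls, 6 were of members that passed the rule in both stages. Among the higher ones, 2 passed in P alone (eca-miR-184 and hsa-miR-493-5p). Among the lower ones, 3 passed in D alone (eca-miR-205, eca-miR-200a and eca-miR-142-3p). Passing in a single stage favours a higher value there. The higher ones were eca-miR-184, best known from cornea and lens, bta-miR-9-5p, a miRNA of neural progenitors, and hsa-miR-493-5p and eca-miR-381, both from the imprinted DLK1-DIO3 gene cluster. The lower ones were eca-miR-205, eca-miR-31 and eca-miR-200a, all known from epithelia, both arms of the blood-cell miRNA miR-142, the erythroid eca-miR-486-5p and the cluster member bta-miR-27a-3p. In 51 members every P library lay above every D library and in 42 every P library lay below, against 12.2% and 10.1% of all names tested.

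The balance of higher to lower calls depended on the scaling, although none of the 11 changed sign under any. When libraries were scaled by total reads instead of TMM, 10 miRNAs were called higher and 3 lower, which raised the higher share of the calls to 76.9% under that scaling, against 36.4% under TMM. Under total-read scaling the median log2 change of all names tested was 0.70, against 0.16 under TMM, and D2 with its eca-miR-148a reads enters that scaling in full. Scaling by the reads other than eca-miR-148a, an alternative chosen after seeing the data, gave 10 higher and 8 lower calls and a median of 0.33. Of the 11 miRNAs, 7 were called under all 3 scalings, and eca-miR-31, eca-miR-142-3p, eca-miR-486-5p and also bta-miR-27a-3p were not called under total-read scaling.

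**Figure D1:**
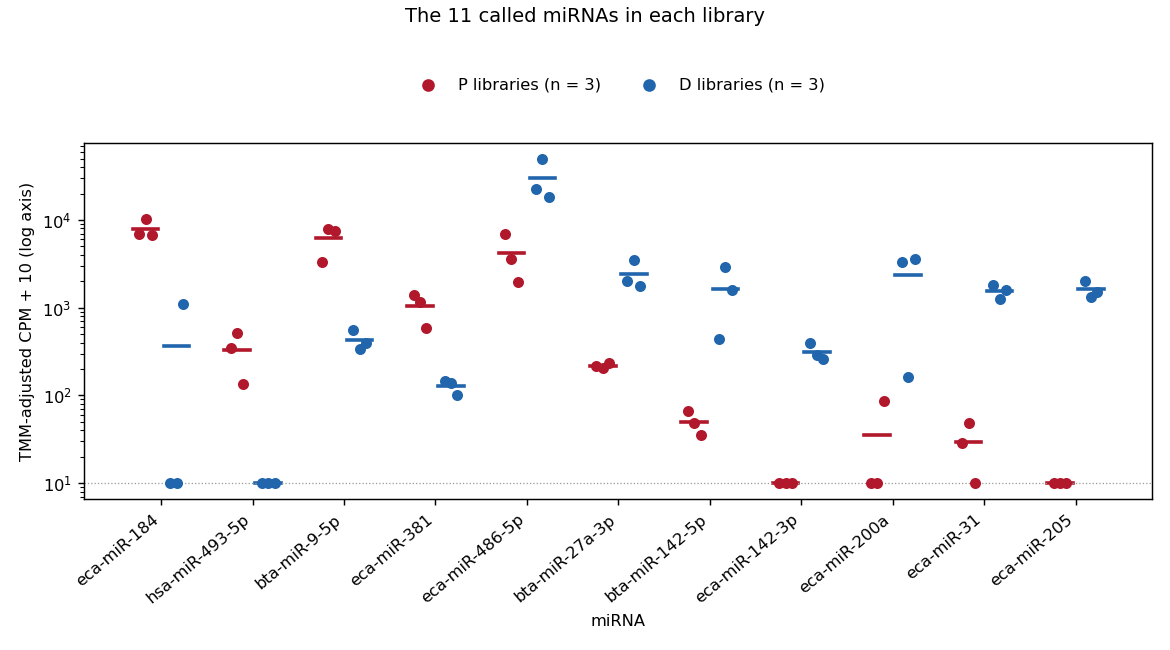
TMM-adjusted CPM + 10 on a log axis for the 11 called miRNAs, with a point for each of the 3 P libraries (left, red) and 3 D libraries (right, blue), a line at the mean of each stage, and a dotted line at 10, where a library without a read falls. The P and D points do not overlap for any of the 11.

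Among the miRNAs that rose, eca-miR-184 showed the largest change. It had 6895, 10126 and 6645 CPM in P, against 0, 0 and 1080.1 CPM in D (log2 change 7.34, SE 1.44, adjusted p = 0.0359 with limma). D1 and D2 held no read, so the level in D rests on the 47 reads of D3. bta-miR-9-5p had 3345, 7884 and 7476 CPM in P, against 544, 325 and 391 CPM in D (log2 change 3.79, SE 0.94, adjusted p = 0.0636). Its level averaged 6235 ± 2511 CPM in P and 419.7 ± 113 CPM in D (SD, n = 3 each).

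hsa-miR-493-5p had 336, 502 and 126 CPM in P, against 0, 0 and 0 CPM in D (log2 change 4.85, SE 1.20, adjusted p = 0.0636). With no read in D, its level was at least 12.7-fold higher in P, taking 3 reads over the D libraries as the floor, and this bound was 8.09 without D2. eca-miR-381, from the same gene cluster, had 1401, 1159 and 579 CPM in P, against 136, 129.8 and 91.9 CPM in D (log2 change 2.96, SE 0.78, adjusted p = 0.0891). All 3 P libraries were at or above 579 CPM and all 3 D libraries at or below 136.0 CPM. Bounds and intervals on reads cover counting error only.

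Among the miRNAs that fell, eca-miR-205, which marks basal cells of stratified epithelia, had 0, 0 and 0 CPM in P, against 2013, 1319.7 and 1494 CPM in D (log2 change -7.32, SE 1.63, adjusted p = 0.0476). It was at least 62.8-fold lower in P, and this bound was 34.6 without P1. eca-miR-31, known from keratinocytes, had 18.7, 38.6 and 0 CPM in P, against 1795, 1255 and 1563 CPM in D (log2 change -5.99, SE 1.60, adjusted p = 0.0891). The pooled reads, 2 in P and 192 in D, gave a ratio of 90.4 with an exact 95% interval of 24.7 to 752. hsa-miR-203a-3p, the keratinocyte differentiation miRNA and the remaining member of the stratified epithelium list, had 0, 0 and 1409.6 CPM in P, against 1278, 325 and 643 CPM in D and was not called (log2 change -3.65, adjusted p = 0.314), since P3 reached the level of the D libraries.

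eca-miR-200a, a repressor of the ZEB transcription factors in epithelial cells, had 0, 0 and 75.5 CPM in P, against 3291, 151 and 3562 CPM in D (log2 change -5.92, SE 1.41, adjusted p = 0.0588). Its 3 reads in P and 283 in D gave a ratio of 88.8 (exact 95% interval 30.1 to 433), and D2 stood far under D1 and D3. The fall was not seen in the less abundant bovine entry of the same name, bta-miR-200a, with a log2 change of -0.01. bta-miR-27a-3p, cut from the miR-23a/27a/24-2 cluster, had 206, 193 and 227 CPM in P, against 1985, 3505 and 1769.6 CPM in D (log2 change -3.41, SE 0.69, adjusted p = 0.0359). Its level averaged 208 ± 16.8 CPM in P and 2419.9 ± 946 CPM in D (SD, n = 3 each). The P values rest on 11, 5 and 9 reads, and their SD is less than the worth of 1 read, so their closeness says little about the spread. eca-miR-486-5p had 6876, 3594 and 1963 CPM in P, against 22493, 49607 and 18408 CPM in D (log2 change -2.90, SE 0.66, adjusted p = 0.0476), and it was the most abundant miRNA called.

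bta-miR-142-5p, restricted to cells of the blood lineages, had 56.1, 38.6 and 25.2 CPM in P, against 435, 2877 and 1586 CPM in D (log2 change -4.72, SE 0.95, adjusted p = 0.0359). The other arm, eca-miR-142-3p, had 0, 0 and 0 CPM in P, against 381, 281 and 253 CPM in D (log2 change -4.96, SE 1.13, adjusted p = 0.0476), and was at least 11.9-fold lower in P, or 6.57-fold without P1. Both arms were thus low in each P library and present in each D library.

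These calls were sensitive to the number of libraries. None of the 11 was called in every fit that left out 1 P or D library. The limma count was 0 without P1 and 0 without P2, where 49 and 48 names still had an unadjusted p under 0.05, against 61 members with all libraries. It was 5 without P3, 2 without D1, 1 without D2 and 1 without D3. Each of the 11 kept its direction in all 6 of these fits. The log2 change of eca-miR-184 was 9.60 without D3 and 6.21 without D1 or without D2, that of eca-miR-200a was -7.39 without D2, -6.95 without P3, -5.21 without D1 and -5.16 without D3, that of bta-miR-142-5p was -5.47 without D1 and -4.12 without D2, and that of eca-miR-31 was -5.36 without P3. On the recovered reads, the quasi-likelihood test of edgeR called 7 miRNAs, all among the 11, and DESeq2 called 46, which include the 11. With edgeR, 3 of the 4 higher calls were lost, those of eca-miR-184, hsa-miR-493-5p and eca-miR-381, and 1 lower call, that of eca-miR-142-3p. With only P and D libraries in the limma fit, eca-miR-184 and eca-miR-200a were not called. Over all 417 names, 14.6% had an unadjusted p under 0.05 with limma, and DESeq2 called 5.28% higher and 5.76% lower, which are the shares to set beside the counts of the lists below.

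**Figure D2:**
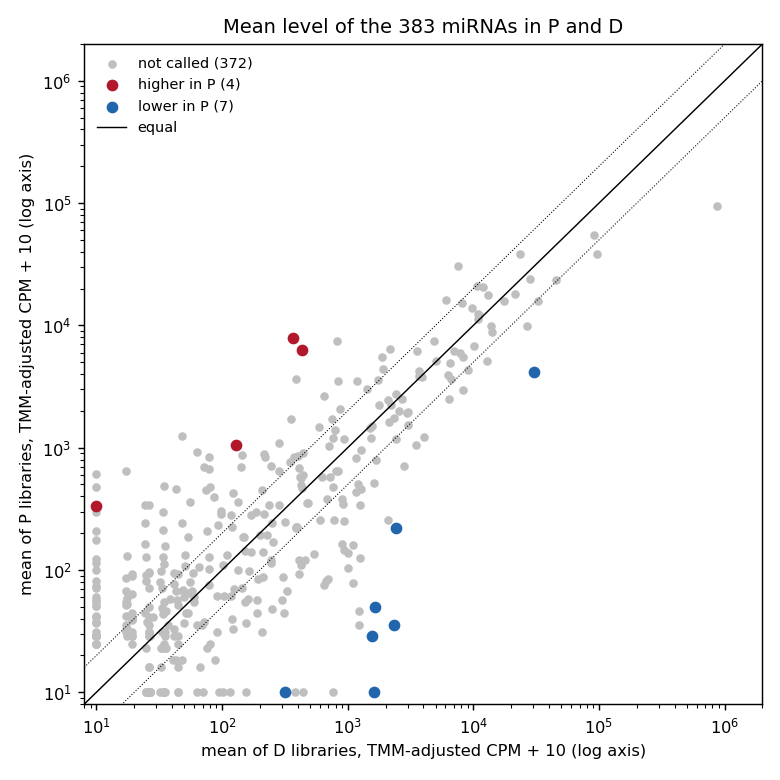
Mean TMM-adjusted CPM + 10 of the 383 miRNAs in the 3 P libraries (vertical) and the 3 D libraries (horizontal), both on log axes, with a solid line at equality and dotted lines at 2-fold. The 4 red (higher in P) and 7 blue (lower in P) points are the called miRNAs.

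The most abundant miRNAs were largely shared. Of the 20 with the highest mean CPM in each stage, 16 were the same, and of the 242 members that passed in both stages 127 differed by less than 2-fold. eca-miR-148a, a miRNA abundant in many tissues, ranked first in both and had 119853, 78456 and 86338 CPM in P, against 121958, 2319965 and 176565 CPM in D. P and D did not overlap, P1 and D1 nearly met, D2 was far above the rest and the difference was not called (log2 change -1.98, adjusted p = 0.311). hsa-miR-10400-5p, whose name is on the list of possible structural RNA fragments, took 6.01 to 9.46% of the reads in P and 1.80 to 16.9% in D. That list, chosen from names in the study's supplement, summed to 11.0 to 14.5% of the reads in P and 3.78 to 25.9% in D.

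Reads were more concentrated on a few miRNAs in the D libraries. The 10 most abundant miRNAs held 52.0, 45.0 and 47.7% of the reads in P (mean 48.2 ± 3.52, SD, n = 3) and 60.8, 86.3 and 56.5% in D (67.9 ± 16.1, n = 3). The stages did not overlap, and a two-sided exact permutation test gave p = 0.1, the smallest that 3 against 3 libraries allow. Without eca-miR-148a the means were 43.6% in P and 52.6% in D (exact permutation p = 0.1). At an equal depth of 18384 reads, 301 ± 44.3 names were expected in P and 234 ± 47.4 in D (SD, n = 3 each), which did not differ beyond the spread (exact permutation p = 0.3).

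White-cell miRNAs had lower values in P. In the leukocyte list, which holds miR-142, miR-223 of neutrophils, miR-150 of mature lymphocytes, miR-155 of activated immune cells and miR-146a and miR-146b, induced by NF-kappaB, all 14 members had a log2 change below 0, 2 of them called. Their median was -2.62, against 0.16 for all names tested, and -1.85 against 0.70 under total-read scaling. In 7 of the 14 every P library lay below every D library, against 10.1% of all names tested. The 14 entries stand for 6 miRNAs once species and arm are set aside, so they are not separate observations. Of the entries, 5 passed the rule in D alone, which favours higher values in D.

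Inside that list, eca-miR-155 had 37.4, 116 and 50.3 CPM in P, against 109, 1125 and 2022 CPM in D (log2 change -3.19, adjusted p = 0.308), and hsa-miR-155-5p had 18.7, 38.6 and 50.3 CPM in P, against 0, 2704 and 942 CPM in D. D1 held little of either. eca-miR-146b-5p had 0, 77.3 and 0 CPM in P, against 354, 3029 and 253 CPM in D (log2 change -5.01, adjusted p = 0.113), and eca-miR-146a had 411, 77.3 and 252 CPM in P, against 626, 5279 and 322 CPM in D (log2 change -2.29, adjusted p = 0.335). D2 was the highest library for both, by far. hsa-miR-223-5p had 579, 0 and 931 CPM in P, against 2067, 1017 and 1724 CPM in D, and eca-miR-150 had 74.7, 928 and 101 CPM in P, against 517, 1233 and 276 CPM in D. The P and D libraries of miR-150 overlapped, while those of miR-223-5p did not.

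Red-cell miRNAs also had mostly lower values in P. Of the 5 members, 4 had a log2 change below 0, 1 was called, and the median was -2.64 (-1.98 under total-read scaling, and -1.05 without P2). bta-miR-451, an erythroid miRNA matured without Dicer, had 48135, 29411 and 37883 CPM in P, against 68295, 159942 and 62716 CPM in D (log2 change -1.22, adjusted p = 0.314). Every P library lay below every D library, as it did for eca-miR-486-5p. The human entry hsa-miR-451a went the other way, with 1476, 464 and 327 CPM in P, against 27.2, 930.3 and 46 CPM in D (log2 change 2.31, adjusted p = 0.335), and its P and D libraries overlapped. Red-cell reads summed to 6.50, 4.71 and 5.80% of the reads in P, against 10.6, 6.63 and 9.34% in D. Their part in the lower leukocyte values was not tested.

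The miR-143/145 pair of smooth muscle and the miR-199/214 miRNAs of mesenchymal cells, which stand here for theca and stroma, had mostly higher values in P. Of 12 members, 10 had a log2 change above 0 and none was called by limma, with 4 at an unadjusted p under 0.05, against 14.6% of all names, 0 called by edgeR and 4 called higher by DESeq2. The median was 1.93 (2.44 under total-read scaling), and 6 of the 12 passed the rule in P alone. The 12 entries stand for 6 miRNAs once species and arm are set aside, so they are not separate observations. eca-miR-143, the most abundant, had 21881, 18319 and 22101 CPM in P, against 7262, 22413 and 5952 CPM in D (log2 change 1.06, adjusted p = 0.345). bta-miR-143 had 4746, 6145 and 8307 CPM in P, against 1550.3, 3245 and 1678 CPM in D (log2 change 1.61, adjusted p = 0.308), with no overlap between the stages, while the D2 value of eca-miR-143 was above every P value.

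The most abundant miR-199 entry, eca-miR-199a-3p, had 4672, 3285 and 1007 CPM in P, against 1360, 1493 and 1425 CPM in D. These overlapped (log2 change 0.80, adjusted p = 0.565 with limma). Some 5p entries of the family had few reads in D. eca-miR-199b-5p had 1738, 696 and 327 CPM in P, against 0, 21.6 and 138 CPM in D (log2 change 4.37, adjusted p = 0.141), and bta-miR-199a-5p had 1588, 116 and 101 CPM in P, against 0, 0 and 0 CPM in D (log2 change 4.81, adjusted p = 0.128). The second was at least 32.6-fold higher in P, but 85 of its 92 reads were in P1, and without P1 the bound was 4.50. eca-miR-199a-5p had 859.6, 1546 and 1989 CPM in P, against 54.4, 1644 and 46 CPM in D, so that D2 alone reached the level of P. eca-miR-145 had 262, 386 and 378 CPM in P, against 1387, 0 and 0 CPM in D, with all D reads in D1.

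Ratios within a library do not depend on the scaling, and those of leukocyte and red-cell reads to theca and stroma reads separated the stages. For each read of the theca and stroma list there were 0.0348, 0.0496 and 0.0456 leukocyte reads in P, against 0.461, 0.647 and 0.864 in D, and 1.60, 1.07 and 1.20 red-cell reads in P, against 7.99, 7.08 and 8.86 in D. The lowest D library exceeded the highest P library in both. In G, which had no part in this comparison, the leukocyte ratio was 0.151, 0.615 and 0.182. The red-cell ratio in G was 6.02, 9.99 and 1.17, so that G3 lay within the range of P. The lists were chosen with earlier results of these data known. In addition, 5 of the 14 leukocyte members passed the rule in D alone and 6 of the 12 theca and stroma members in P alone. Part of the separation was thus built in, and the ratios are no separate support for the lists. No test was run on them, and they describe the libraries.

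**Figure D3:**
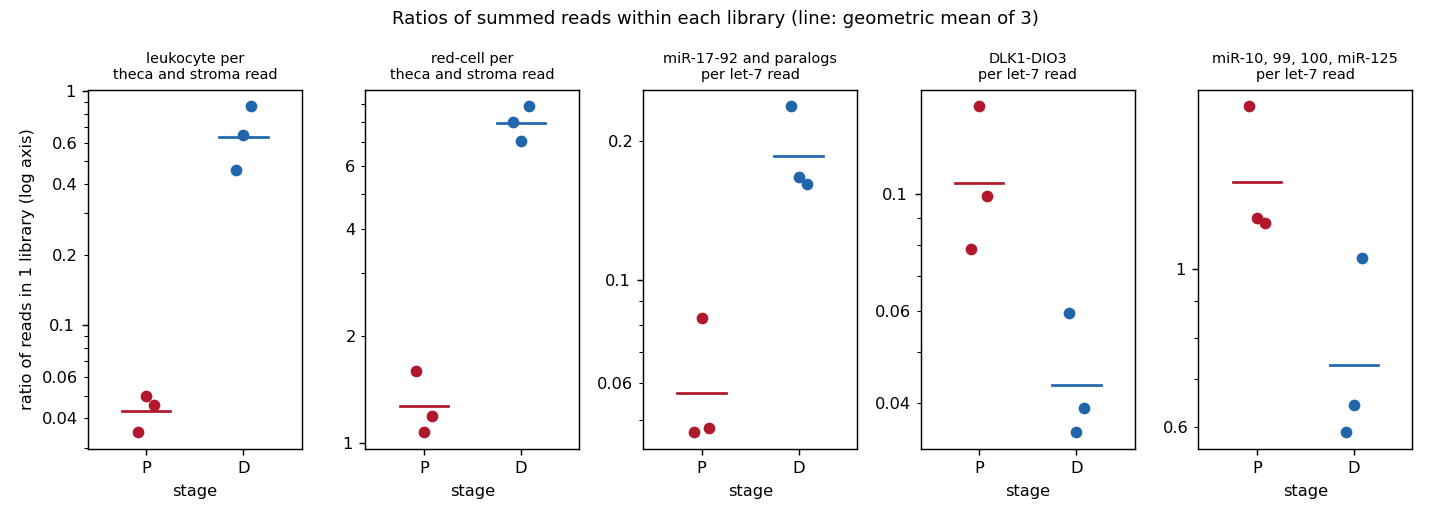
Ratios of summed reads of a pair of lists within each library, on log axes that differ between panels, with a point for each of the 3 P libraries (left, red) and 3 D libraries (right, blue) and a line at their geometric mean. P and D separate in all 5 panels. They do so most widely for leukocyte reads per theca and stroma read, at 0.0348 to 0.0496 in P and 0.461 to 0.864 in D. Not every ratio computed did so. Granulosa and gonad reads per let-7 read, not among the panels, overlapped, with D2 at 0.394 and P at 0.299 to 0.466.

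Of the granulosa and gonad list, no member was called, and none had an unadjusted p under 0.05 with limma (0 calls with edgeR and 0 with DESeq2). eca-miR-21, which luteinizing hormone induces in mouse granulosa cells, had 20947, 30416 and 18929 CPM in P, against 41641, 35004 and 60096 CPM in D (log2 change -0.95, adjusted p = 0.316). All P libraries of eca-miR-21 lay below all D libraries. The less abundant bta-miR-21-5p had 6353, 8850 and 5059 CPM in P, against 11451, 4738 and 14110 CPM in D. Its stages overlapped (log2 change -0.48, adjusted p = 0.707 with limma). bta-miR-202, a gonadal miRNA, had 3102, 889 and 352 CPM in P, against 789, 0 and 3677 CPM in D, a wide spread in both stages. miR-132, miR-212, miR-224 and miR-383 had at most 9 reads in any P or D library. The median of the 10 members was -0.15, and it was 0.46 under total-read scaling, and 0.40 without D1, so that its sign depends on the scaling and on single libraries.

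The DLK1-DIO3 cluster, a large imprinted group of miRNAs expressed from the maternal allele, had mostly higher values in P. Of 34 members, 31 had a log2 change above 0, 2 of them called. In 12 every P library lay above every D library, against 12.2% of all names tested, and none lay below in full, against 10.1%. The median was 1.52 (1.97 under total-read scaling), against 0.16 (0.70) for all names. Of these members 14 passed the rule in P alone, which favours higher values in P, and most had few reads. The 34 entries stand for 24 miRNAs once species and arm are set aside, so they are not all separate observations.

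eca-miR-127, the most abundant of the cluster and an antisense partner of the RTL1 gene, had 3214, 6648 and 3323 CPM in P, against 2257, 1471 and 1953 CPM in D (log2 change 1.15, adjusted p = 0.378), without overlap. eca-miR-379 had 448, 348 and 252 CPM in P, against 27.2, 108 and 0 CPM in D (log2 change 3.31, adjusted p = 0.224), also without overlap. eca-miR-370 had 486, 1198 and 428 CPM in P, against 435, 173 and 91.9 CPM in D, and D1 lay just above P3. bta-miR-493, the entry related to the called hsa-miR-493-5p, had 280.3, 464 and 1737 CPM in P, against 0, 1082 and 0 CPM in D, so that D2 reached the level of P. eca-miR-433 did not follow, with 206, 193 and 151 CPM in P, against 299, 195 and 161 CPM in D. Relative to let-7 reads in the same library, reads of the cluster came to 0.0787, 0.147 and 0.0995 in P, against 0.0593, 0.0352 and 0.0391 in D.

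The miR-17-92 cluster and its paralogs, transcribed in proliferating cells, had mostly lower values in P. Of 10 members, 9 had a log2 change below 0 (median -2.10, and -1.47 under total-read scaling). The 10 entries stand for 8 miRNAs once species and arm are set aside. In 6 every P library lay below every D library, against 10.1% of all names tested. None was called by limma or by edgeR, 3 had an unadjusted p under 0.05 and DESeq2 called 2 lower. eca-miR-92a, the most abundant, had 2336, 3439.7 and 3046 CPM in P, against 11097, 6490.3 and 7308 CPM in D (log2 change -1.47, adjusted p = 0.242). eca-miR-20a had 37.4, 193 and 176 CPM in P, against 843, 671 and 1241 CPM in D (log2 change -2.89, adjusted p = 0.148), and eca-miR-93, of the same seed, had 149, 155 and 75.5 CPM in P, against 517, 2185 and 299 CPM in D (log2 change -2.44, adjusted p = 0.265). Both eca-miR-20a and eca-miR-93 were lower in each P library than in each D library. The more abundant eca-miR-25 had 1962, 2087 and 503 CPM in P, against 2257, 5495 and 1310 CPM in D. Its stages overlapped (log2 change -0.99, adjusted p = 0.512 with limma). Per let-7 read in the same library, reads of the list came to 0.0469, 0.0828 and 0.0479 in P, against 0.238, 0.167 and 0.161 in D.

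The miR-10, miR-99/100 and miR-125 families, whose genes lie in HOX clusters or beside let-7 genes, took a larger share of the reads in P. They held 19.1, 14.5 and 13.5% of the reads in P, against 4.46, 2.02 and 8.38% in D. All 13 members had a log2 change above 0, with a median of 0.97 (1.75 under total-read scaling). None was called by limma or edgeR, and DESeq2 called 3 higher. The 13 entries stand for 7 miRNAs once species and arm are set aside, so they are not separate observations. Of the entries, 2 passed the rule in P alone. An unadjusted p under 0.05 was found for 2 of the 13, near the 14.6% of all names. The median was 0.61 without P1, and 11 of the 13 lay above 0 without D1. eca-miR-99a had 52583, 20097 and 19709 CPM in P, against 3073, 5885 and 13605 CPM in D (log2 change 2.13, adjusted p = 0.148), highest in P1 and without overlap. Its bovine counterpart bta-miR-99a-5p had 53143, 32194 and 29400.3 CPM in P, against 14551, 32429.7 and 23027 CPM in D, and these did overlap. eca-miR-100 had 14127, 18397 and 13467 CPM in P, against 8377, 5971 and 10181 CPM in D and eca-miR-125b-5p had 2728, 4135 and 3876 CPM in P, against 2230.3, 1493 and 1448 CPM in D, both without overlap.

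The let-7 family, which restrains growth-promoting genes, differed less. Of 16 members 12 had a log2 change above 0, and the median was 0.41 (1.04 under total-read scaling). None was called by limma or edgeR, with 3 called by DESeq2, of them 2 higher. The 16 entries stand for 9 miRNAs once species and arm are set aside, so they are not all separate observations. An unadjusted p under 0.05 was found for 2 of the 16, no more than the 14.6% of all names, and the median was 0.15 without P2 and 0.24 without D3. eca-let-7a had 20499, 16696 and 10899 CPM in P, against 4542, 5668 and 7952 CPM in D (log2 change 1.39, adjusted p = 0.224) and eca-let-7e had 729, 3169 and 1183 CPM in P, against 354, 151 and 529 CPM in D (log2 change 2.16, adjusted p = 0.297), both without overlap. bta-let-7i, the most abundant, had 26104, 23807 and 22302 CPM in P, against 23282, 38401 and 22429.7 CPM in D, and eca-let-7f had 11903, 12638 and 12057 CPM in P, against 9737, 11618 and 12134 CPM in D. Those 2 pairs of values were close: the log2 changes were -0.18 and 0.13, with standard errors of 0.41 and 0.49.

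Because D2 differed from the other libraries, the lists were also counted without it. All 14 leukocyte members stayed below 0 (median -2.35), as did 9 of 10 of the miR-17-92 list (-1.63) and 4 of 5 of the red-cell list (-2.40). All 12 theca and stroma members lay above 0 (1.88), as did 28 of 34 of the DLK1-DIO3 list (1.37), 12 of 13 of the miR-10, miR-99, miR-100 and miR-125 list (0.97) and 13 of 16 of the let-7 list (0.47). In that fit limma called no member of these 7 lists.

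**Figure D4:**
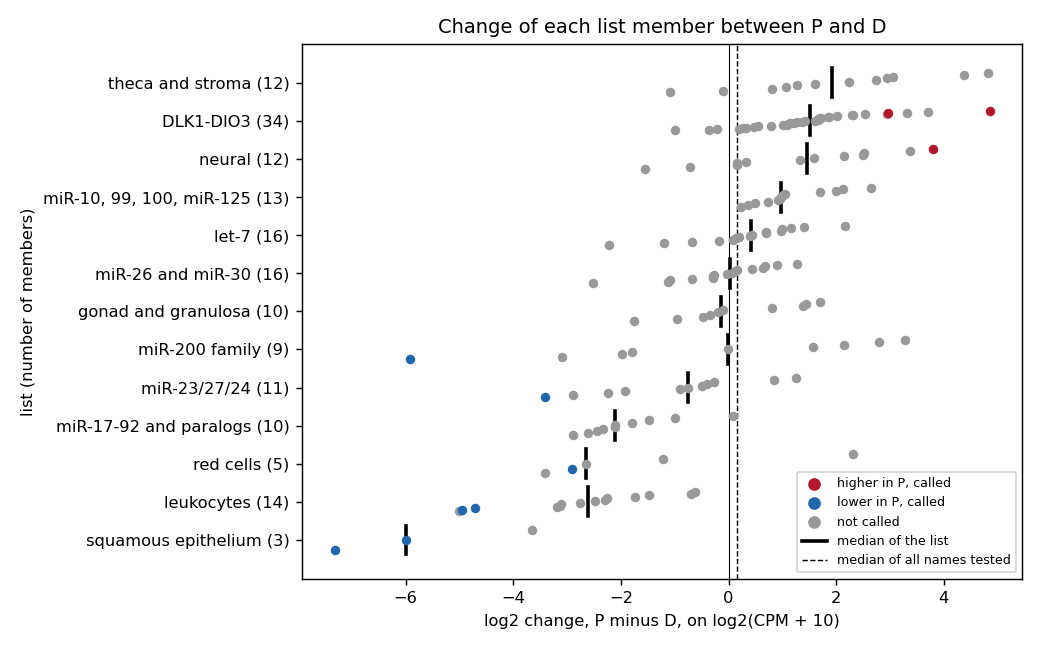
Log2 change (P minus D, on log2(CPM + 10)) of each member of 13 lists, 1 point a miRNA name, red and blue where called, with a bar at the median of each list, a solid line at 0 and a dashed line at the median of all 417 names tested. The leukocyte points all lie left of 0 and the miR-10, miR-99, miR-100 and miR-125 points all lie right of it.

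In the list of neural miRNAs 10 of 12 members had a log2 change above 0, with a median of 1.46 (1.93 under total-read scaling). It was 1.00 without P3, and 8 of the 12 lay above 0 without D2. Of these members 3 passed the rule in P alone and 2 in D alone. The largest changes of the list were those of bta-miR-9-5p and eca-miR-9a. eca-miR-9a, with the seed of the called bta-miR-9-5p, had 4260.4, 7111 and 10874 CPM in P, against 626, 1514 and 299 CPM in D (log2 change 3.37, adjusted p = 0.128), and hsa-miR-9-3p, the other arm, had 93.4, 309 and 201 CPM in P, against 27.2, 21.6 and 23 CPM in D (log2 change 2.50, adjusted p = 0.317). All 3 entries had higher values in each P library than in any D library. eca-miR-128, an abundant neuronal miRNA, had 12819, 10049 and 14096 CPM in P, against 10118, 10363 and 12387 CPM in D, hardly different between the stages, so the list did not move as one.

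Of the 4 muscle miRNAs, 3 had a log2 change above 0 and 1 below, and none was called. Among those above 0, 2 passed the rule in P alone, eca-miR-206 and eca-miR-133a, which favours higher values in P. eca-miR-1, the most abundant, had 15902, 17662 and 8281 CPM in P, against 10335, 9043 and 9951 CPM in D (log2 change 0.44, adjusted p = 0.699). eca-miR-206, of skeletal muscle, had 2579, 3826 and 4455 CPM in P, against 1142, 0 and 0 CPM in D (log2 change 6.18, adjusted p = 0.141), and all D reads were in D1. eca-miR-133a had 74.7, 657 and 126 CPM in P, against 0, 0 and 0 CPM in D and was at least 9.20-fold higher in P, or 4.07-fold without P2. The member below 0, eca-miR-499-5p of heart and slow muscle, had 1159, 77.3 and 25.2 CPM in P, against 2039.9, 1406 and 0 CPM in D (log2 change -1.01, adjusted p = 0.836), which overlapped.

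The miR-200 family, the repressors of ZEB1 and ZEB2 that hold cells in an epithelial state, gave opposite directions for entries of one hairpin. hsa-miR-200a-5p had 916, 889 and 780.3 CPM in P, against 54.4, 325 and 23 CPM in D (log2 change 3.28, adjusted p = 0.311), higher in each P library, while the called eca-miR-200a was lower. The bovine entry bta-miR-200a hardly changed (log2 change -0.01). hsa-miR-200b-5p had 187, 386 and 126 CPM in P, against 0, 21.6 and 91.9 CPM in D, and eca-miR-200c had 18.7, 77.3 and 126 CPM in P, against 598, 281 and 1172 CPM in D (log2 change -3.09, adjusted p = 0.345). Of 9 members 4 were above and 5 below 0, and the median of -0.01 became 0.58 under total-read scaling and 1.54 without P1.

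The miR-23/27/24 clusters had 9 of 11 members below 0 under TMM and 6 of 11 under total-read scaling. Under total-read scaling the median was -0.07, against -0.75 under TMM and -1.21 without P2. The 11 entries stand for 5 miRNAs once species and arm are set aside. eca-miR-27a, the equine miR-27a entry, held more reads than the called bta-miR-27a-3p (150 in P and 451 in D, against 25 and 312) and changed less. It had 2074, 193 and 856 CPM in P, against 3046, 4997 and 2482 CPM in D (log2 change -2.23, adjusted p = 0.238). eca-miR-23a had 74.7, 193 and 75.5 CPM in P, against 2747, 649 and 322 CPM in D (log2 change -2.89, adjusted p = 0.314). All P libraries lay below all D libraries in both. eca-miR-27b, from the paralogous cluster, had 2784, 5333 and 2819 CPM in P, against 4977, 7247 and 7515 CPM in D, which overlapped.

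Both arms of a hairpin could be compared for 30 miRNAs. The arms of miR-142, miR-486 and miR-9 had log2 changes of the same sign. Some pairs had opposite signs, such as eca-miR-361-5p at 0.66 and hsa-miR-361-3p at -1.91. Likewise eca-miR-126-5p was at 0.64 and eca-miR-126-3p at -1.33. These 5p arms were scarce, with means of 30.8 and 14.1 CPM over the P and D libraries. Other pairs had an arm near 0. eca-miR-423-3p had 4541, 1546 and 4481 CPM in P, against 898, 259.6 and 1333 CPM in D (log2 change 2.20, adjusted p = 0.194), whereas eca-miR-423-5p had 11641, 10822 and 7275 CPM in P, against 5820.5, 27281 and 8549 CPM in D (log2 change -0.19). The 3p arm was higher in each P library and the 5p arm overlapped between stages. bta-miR-455-5p had 149, 2976 and 554 CPM in P, against 27.2, 64.9 and 23 CPM in D (log2 change 3.84, adjusted p = 0.234), with 77 of its P reads in P2, and bta-miR-455-3p had 18.7, 116 and 50.3 CPM in P, against 54.4, 0 and 345 CPM in D (log2 change -0.02). The arms of miR-27a had the same sign but unequal sizes: bta-miR-27a-5p had 56.1, 734 and 25.2 CPM in P, against 163, 151 and 161 CPM in D, with a log2 change of -0.49 against -3.41 for its called 3p arm.

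The miR-148 and miR-152 family, which shares a seed in other mammals, also parted. bta-miR-152 had 990.4, 812 and 856 CPM in P, against 136, 389 and 91.9 CPM in D (log2 change 2.30, adjusted p = 0.231), higher in each P library, while eca-miR-148b-3p had 1121, 696 and 1812 CPM in P, against 2992, 7377 and 1701 CPM in D (log2 change -1.57, adjusted p = 0.316) and eca-miR-148a was lower in P as given above. In the endothelial list, eca-miR-126-3p had 5549.8, 4445 and 5236 CPM in P, against 10907, 16096 and 11651 CPM in D (log2 change -1.33, adjusted p = 0.224), lower in each P library, while the other 2 members, with far fewer reads, were above 0, bta-miR-126-3p at 1.98 and eca-miR-126-5p at 0.64 on the log2 scale. In the miR-183/96/182 cluster of sensory cells, eca-miR-183 had 168, 155 and 126 CPM in P, against 1714, 1017 and 575 CPM in D (log2 change -2.67, adjusted p = 0.148) and eca-miR-96 had 149, 232 and 75.5 CPM in P, against 0, 43.3 and 0 CPM in D (log2 change 3.09, adjusted p = 0.314), in opposite directions and each without overlap.

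In the liver and gut list, miR-122, miR-192 and bta-miR-215 were abundant in both stages. No member was called, none had an unadjusted p under 0.05 with limma, and edgeR and DESeq2 made 0 calls. eca-miR-122, made almost only by hepatocytes, had 17173, 12213 and 17796 CPM in P, against 43082, 34182 and 20499 CPM in D (adjusted p = 0.327 with limma), below D in every P library. bta-miR-192 had 22498, 13604 and 11679.6 CPM in P, against 11396, 19925 and 21028 CPM in D and overlapped. eca-miR-194 had 1289, 657 and 529 CPM in P, against 81.6, 21.6 and 529 CPM in D and did not, although P3 and D3 had nearly the same value. The less abundant eca-miR-215 had a log2 change of 2.73, against -0.19 for bta-miR-215.

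The remaining lists held few separations. The miR-26 and miR-30 families had 8 of 16 members above 0 and a median of 0.02, with eca-miR-26a at 25712, 14764 and 13718 CPM in P, against 15694, 23365 and 24843 CPM in D. In the miR-181 and miR-221/222 list, bta-miR-181d had 93.4, 116 and 151 CPM in P, against 0, 0 and 23 CPM in D (log2 change 3.10, adjusted p = 0.224) and eca-miR-221 had 2354, 1507 and 957 CPM in P, against 3291, 1319.7 and 1793 CPM in D. eca-miR-378 had 56.1, 193 and 126 CPM in P, against 326, 649 and 598 CPM in D, lower in each P library, and the abundant bta-miR-378 had 2485, 5449 and 3725 CPM in P, against 2121, 11207 and 5561 CPM in D, which overlapped. In the miR-29, miR-320 and miR-15, miR-16 and miR-107 lists no member was called and none had an unadjusted p under 0.05.

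Some members had reads in one stage only, which the rule itself favours, so their counts are a description. Among those with 10 or more reads, the P-only set included eca-miR-450b-5p with 112, 155 and 75.5 CPM in P, against 0, 0 and 0 CPM in D and eca-miR-542-3p with 56.1, 155 and 101 CPM in P, against 0, 0 and 0 CPM in D, which lie in one X-linked cluster in mammals, at least 4.60-fold and 3.89-fold higher in P (2.92 and 2.47 without D2). Reads of bta-miR-574 were nearly all in P2 (36 of 37), and those of eca-miR-671-5p in P1 (30 of 31). In the D-only set, hsa-miR-452-5p had 81 of 83 reads in D1 and hsa-miR-3615 had 58 of 60 in D2. eca-miR-506a had 17 reads in D1, 0 in D2 and 28 in D3.

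Further members with a low p that missed the threshold were eca-miR-615-3p, from an intron of HOXC5, with 1252, 77.3 and 1158 CPM in P, against 0, 0 and 207 CPM in D (log2 change 4.18, adjusted p = 0.18), and eca-miR-590-3p, with a single read in each D library and none in P (log2 change -1.76, adjusted p = 0.148). The first overlapped between stages through P2, and the second lies at the limit of detection.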

How the data were processed

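Small-RNA libraries of FF-EVs were compared between P and D (n = 3 each), with 3 G libraries in the same fit. According to the methods, the authors trimmed the reads, matched them in CLC Genomics Workbench to miRBase entries of horse, cattle and human, allowing 2 mismatches, and deposited TMM-adjusted CPM, a signal whose sum differs between libraries. Reads were recovered by dividing each value by the smallest of its library, and 100% came out whole within 0.01. Depth was 18384 to 149281 reads in P and D, and 3 reads are worth 56.1 to 115.9 CPM.

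Names above 10 CPM in at least 2 of 3 libraries of any stage (417) were tested with limma 3.58.1 in R 4.3.3 on log2(CPM + 10), letting the prior variance follow abundance, with Benjamini-Hochberg adjustment, and called at an adjusted p under 0.1 and 2-fold. The script was tested on simulated data. edgeR 4.0.16 and DESeq2 1.42.0 on recovered reads, pseudocounts, filters, scalings and each library left out were alternatives. Named miRNAs are those called, the 10 most abundant, up to 4 per list, those with 10 or more reads in a single stage, and the 15 uncalled of lowest p. Others were named after their values were seen, to describe the second entry or arm of a miRNA or an exception in a list. Members and the 26 lists were chosen with earlier results of these data known, and lists were matched by name. Sequences were read from the study's supplement. No genome positions were used here.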

Additional observations from a re-analysis of the deposited data

How the results depend on the processing

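The count of called miRNAs, 11 (4 higher and 7 lower in P), depended on the processing. With each library left out in turn it ranged from 0 to 16 (higher 0 to 9, lower 0 to 8). It was 46 with DESeq2 (22 higher, 24 lower, with the adjusted p missing for 117 names), 7 with edgeR (1 higher, 6 lower), 20 with at least 10 CPM in all 3 libraries of a stage (10 higher), 21 with only P and D libraries in the fit (10 higher, 11 lower), 7 with a pseudocount of 50 CPM (2 higher) and 6 at an adjusted p under 0.05 (1 higher). Scaling by reads other than eca-miR-148a, added after seeing the data, gave 18 (10 higher), and total-read scaling gave 13 (10 higher, 3 lower). The remaining alternatives gave 10 to 13. The fit with the replicate number as a replicate block called 11 (3 higher, 8 lower), 10 of them among those reported, with eca-miR-381 lost and eca-miR-146b-5p gained. Deviations of same-numbered P and D libraries correlated at 0.08, 0.03 and -0.01, so the numbers were not taken to pair the samples. For the miRNAs named singly, 2383 of the recomputed values kept their side of the threshold, 81 lost it, 73 gained it and 0 reversed. The kept values were mostly of miRNAs not called in the main fit, whereas the 81 losses all fell on the 11 called miRNAs. A reversal here means a call in the opposite direction, and the sign of an uncalled miRNA could still change with the scaling. The expected number of names at equal depth differed by 66.9 between P and D, or 39.5 to 87.7 with a library left out, and the share of the 10 most abundant by -19.7 percentage points, or -25.3 to -10.5. Depth limits the low values: the median standard error of a log2 change was 1.08, and a library without a read allows up to 56.1 to 115.9 CPM.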

Other observations

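Entries that name the same miRNA in different species could be compared for 33 names, and they did not always change alike. eca-miR-126-3p had a log2 change of -1.33 between P and D, against 1.98 for bta-miR-126-3p. eca-miR-200b had -1.80, against 1.57 for bta-miR-200b, and bta-miR-455-5p had 3.84, against -1.62 for hsa-miR-455-5p. In each of these pairs the second entry held fewer reads, and whether reads moved between entries in the counting was not tested. The 11 called miRNAs in G took values near P for some and near D for others: eca-miR-184 had 8852, 6059 and 1631 CPM in G, with G1 and G2 near P and G3 nearer to D3, and bta-miR-27a-3p had 1858, 1004 and 1383 CPM in G, near D. eca-miR-205 had 0, 3013 and 525 CPM in G, so that it was without a read in G1 as in P1, P2 and P3.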
